A study of Mus musculus with 23 samples.

Results

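The non-collagen part of the extracellular matrix was followed here through 10 genes: Vcan, Dcn, Bgn, Lum and Fmod, which encode proteoglycans, Fn1, Tnc, Postn and Sparc, which encode matrix glycoproteins, and Timp1, which encodes an inhibitor of matrix proteases. Its members are all probe sets whose platform annotation names exactly 1 of these genes (21 of the 22626 probe sets on the array, and 10 of the 12393 genes that such a probe set names). Fmod had 6 probe sets, Vcan and Bgn had 3 each, Fn1 and Sparc had 2 each, and the other genes had 1. A probe set ending in _a_at reads several transcripts of its gene, and one ending in _x_at holds probes that also resemble other sequences, which applied to 5 probe sets of Fmod and 1 of Bgn.

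The mice were male and of the strain given in the labels as C57/BL6, and 19 to 20 weeks old at the start. BF (Bion Flown) mice spent 30 days in microgravity on the Bion M1 biosatellite and were sampled 12 to 14 h after landing, so that the values hold the flight, the landing and the first hours of reloading together. FC (Flight Control) mice lived in a standard animal facility, and BG (Bion Ground) mice lived on the ground in the habitat used for flight. RNA came from the back muscle *longissimus dorsi* (5 BF, 5 FC and 5 BG arrays) and from tongue (3 BF, 2 FC and 3 BG arrays). BF and BG shared the habitat but not gravity, while FC and BG shared gravity but not the habitat. Values are on the log2 scale of RMA, on which a step of 1 means 2-fold. Since probes differ in how well they bind, a value is set only against values of the same probe set. A probe set is said to rise or fall where limma's moderated test gave a p under 0.05 after Benjamini-Hochberg adjustment across the whole array.

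Array medians lay between 6.42 and 6.61. Within groups, arrays correlated with one another across probe sets at a mean Pearson r of 0.979 to 0.996. Deviations from the group mean had an SD of 0.103 to 0.356 per array, the widest in BG *longissimus dorsi* replicate 5. Muscle fibre markers such as Acta1 and Ckm were bright in both tissues, with a mean over 8 genes of 13.9 to 14.1 in *longissimus dorsi* arrays and 12.6 to 13.6 in tongue arrays. Markers of stratified epithelium (10 of 11 listed genes were measured) had a mean of 11.4 to 11.7 in tongue and 4.82 to 5.20 in *longissimus dorsi*, so that the tongue samples held the lining as well as the muscle. In such bulk samples, fewer cells of a type and less RNA per cell cannot be told apart.

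Proteoglycans carry long sulphated sugar chains on a core protein. Versican, the product of Vcan, is a large chondroitin sulphate proteoglycan that binds hyaluronan and fills loose, newly made matrix, while decorin, biglycan, lumican and fibromodulin are small leucine-rich proteoglycans that bind collagen fibrils and help to set their width. Fibronectin, the product of Fn1, links cells to the matrix through integrins, and tenascin-C, periostin and SPARC are matricellular proteins, made in abundance during development, repair and mechanical loading. In muscle most of these proteins come from connective tissue cells between the fibres, and fibromodulin is best known from tendon.

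Sequence before the transcription start is shown for Vcan, Postn and Timp1, the members that fell in BF vs. BG of *longissimus dorsi*. None of them passed in BF vs. FC of that muscle. It covers the 250 bases before a start on the gene's strand, from RefSeq (GRCm38.p6). The table used here was matched to 7 of the 10 members, with 9 starts, and Dcn, Lum and Fn1 were not matched. Capitals mark matches on either strand to TATAAA, the TATA box, to GGAATG, the TEAD motif, or to GGGCGG, the SP1 motif, which reads CCGCCC on the other strand. The first is Vcan at chr13:89742513-89742762 on the minus strand, the second the Postn start at chr3:54360857-54361106 on the plus strand, and the third Timp1 at chrX:20869916-20870165 on the plus strand.
Vcan: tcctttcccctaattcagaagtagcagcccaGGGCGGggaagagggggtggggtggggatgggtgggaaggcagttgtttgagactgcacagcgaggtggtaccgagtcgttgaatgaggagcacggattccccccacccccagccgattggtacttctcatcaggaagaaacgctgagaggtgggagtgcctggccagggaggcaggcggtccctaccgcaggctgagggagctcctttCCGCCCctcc
Postn: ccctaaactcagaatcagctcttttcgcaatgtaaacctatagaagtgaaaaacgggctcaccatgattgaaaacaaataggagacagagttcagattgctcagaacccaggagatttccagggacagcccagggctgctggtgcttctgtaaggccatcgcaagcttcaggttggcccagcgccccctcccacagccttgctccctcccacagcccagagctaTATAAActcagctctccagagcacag
Timp1: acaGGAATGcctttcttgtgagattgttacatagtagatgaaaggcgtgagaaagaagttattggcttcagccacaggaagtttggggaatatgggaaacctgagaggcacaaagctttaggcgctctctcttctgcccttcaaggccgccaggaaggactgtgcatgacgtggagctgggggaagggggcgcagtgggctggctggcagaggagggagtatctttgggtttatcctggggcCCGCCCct

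The Vcan window held SP1 motifs 219 and 10 bases before the start and the Timp1 window held a TEAD motif 247 bases and an SP1 motif 8 bases before it. The Postn window held a TATA box 26 bases before the start, and its other start held no match. Of 32851 mouse promoter windows of this length, 32.7% held GGGCGG, 12.6% GGAATG and 12.4% TATAAA. The AP-1 motif TGANTCA, in 6.75% of windows, was in none of the 9 member windows, and the SMAD motif CAGACA, in 17.1%, was in that of Sparc and in 1 of the Tnc windows. The motifs do not overlap one another in the printed windows, and these matches of letters were not tested as binding sites.

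To see how flight and housing changed the members in *longissimus dorsi*, BF was compared with BG, BF with FC and FC with BG. In BF vs. BG, 5 of the 21 probe sets fell and 0 rose, against 3.83% of all probe sets that fell and 6.41% that rose. The 5 were the 3 probe sets of Vcan and those of Postn and Timp1. Of them, 3 fell by more than 2-fold (2 of Vcan and that of Timp1), against 0.106% of all probe sets. The estimate was below 0 in 19 of the 21, with a median log2 change of -0.44, against -0.03 over all probe sets. By the brightest probe set of each gene it was below 0 in 9 of the 10 genes (median -0.53). In BF vs. FC none of the 21 passed in either direction, against 3.66% of all probe sets. The estimate was again below 0 in 19 of the 21 (median -0.27, against -0.03 over all probe sets). By the brightest probe sets it was below 0 in 9 of the 10 genes (median -0.23). An unadjusted p under 0.05 was found for 6 of the 21 and for 15.9% of all probe sets. In FC vs. BG 1 probe set of Vcan fell, against 2.16% of all probe sets, and the estimate was below 0 in 8 of the 21 (median 0.07). BF vs. BG and FC vs. BG share the BG arrays, so a high BG array lowers both.

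**Figure D1:**
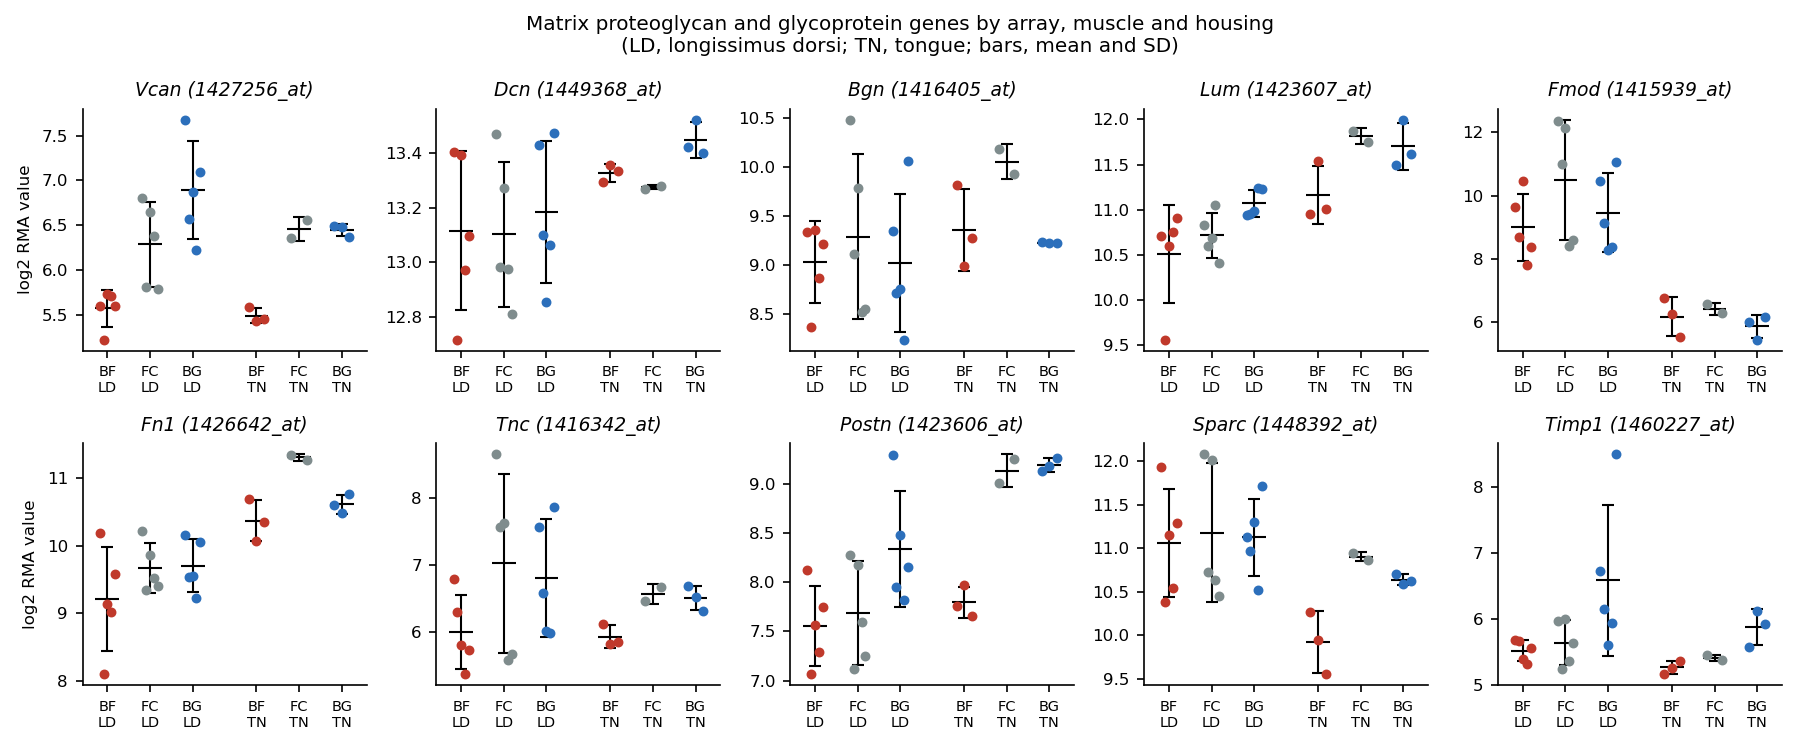
Log2 RMA values of the brightest probe set of each gene (vertical axes, which differ between panels) in each array, by housing within *longissimus dorsi* (LD) and tongue (TN), the group mean and SD being drawn in black. The BF arrays of Vcan lie at 5.22 to 5.74 in LD and 5.43 to 5.58 in TN, below the BG arrays of the same muscle, while Fmod spreads over 8.39 to 12.36 within FC arrays of LD.

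**Figure D2:**
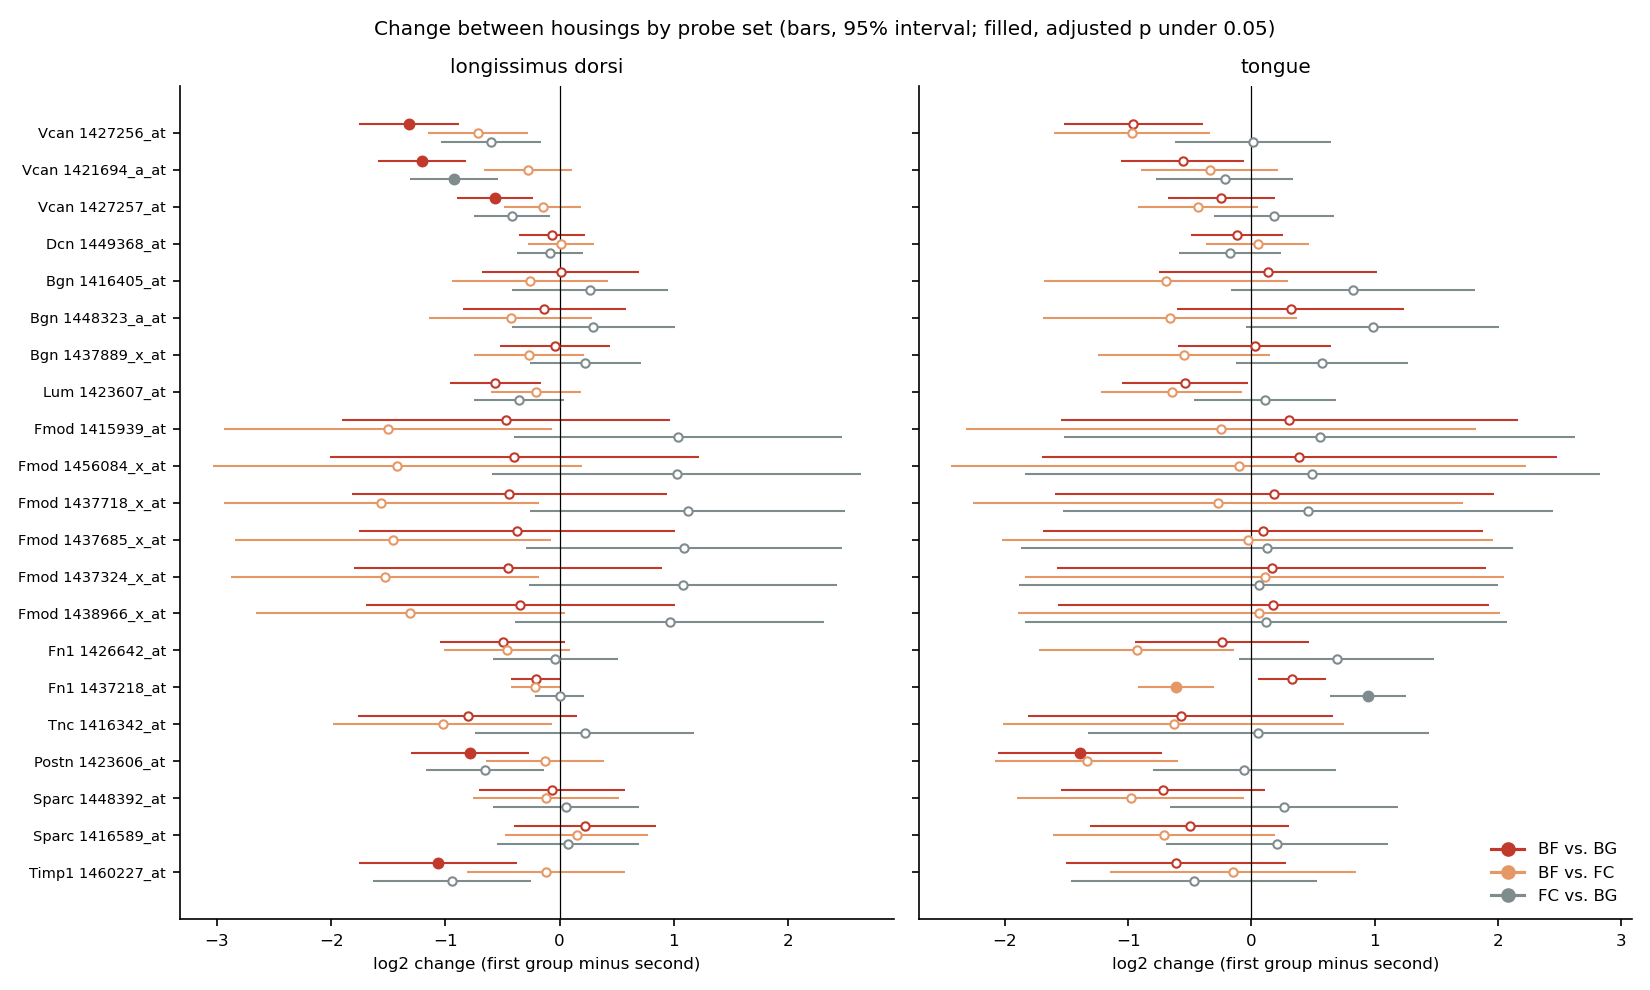
Log2 change (horizontal axis) of each of the 21 probe sets in BF vs. BG, BF vs. FC and FC vs. BG, in *longissimus dorsi* (left) and tongue (right), with 95% intervals. Filled points passed the adjusted p of 0.05, among them all 3 Vcan probe sets in BF vs. BG of *longissimus dorsi* and Postn in BF vs. BG of both muscles.

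Vcan was the member with the clearest difference. Its brightest probe set, 1427256_at, had 5.60, 5.22, 5.74, 5.71 and 5.60 in BF arrays, 6.81, 5.81, 6.65, 6.38 and 5.79 in FC arrays, and 7.68, 6.57, 6.87, 6.23 and 7.10 in BG arrays. Every BF array lay below every BG and every FC array, while FC and BG overlapped. The mean was 5.57 ± 0.205 in BF, 6.29 ± 0.472 in FC and 6.89 ± 0.548 in BG (SD, n = 5 each). It fell by 1.32 in BF vs. BG (standard error 0.211, 2.49-fold, adjusted p = 0.000516). The other contrasts did not pass, at -0.71 in BF vs. FC (95% interval -1.15 to -0.27, adjusted p = 0.063) and -0.60 in FC vs. BG (-1.04 to -0.17, adjusted p = 0.0752). The contrast with FC passed without FC replicate 2 or 5 or BG replicate 1 or 4 (adjusted p = 0.0271 to 0.0377), and that of FC with BG without BG replicate 4 (0.0330), without FC replicate 1 (0.0358) or with the replicate block (0.0351). The order of the means was thus BF, FC, BG, and in the fit of all arrays only its ends were told apart.

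The second Vcan probe set, 1421694_a_at, placed FC closer to BF. It had 5.73, 5.05, 5.95, 5.70 and 5.66 in BF arrays, 6.05, 5.95, 6.03, 5.93 and 5.51 in FC arrays, and 7.42, 6.51, 6.57, 6.31 and 7.30 in BG arrays. Both BF and FC lay below BG without overlap, and BF and FC overlapped. It fell by 1.20 in BF vs. BG (standard error 0.186, adjusted p = 0.000394) and by 0.93 in FC vs. BG (adjusted p = 0.00477), and differed by -0.27 in BF vs. FC (95% interval -0.66 to 0.11). These 2 probe sets kept their call in BF vs. BG without any 1 array, with adjusted p-values up to 0.00181 without BF replicate 2 for the brighter one and up to 0.00144 without BF replicate 4 for the other.

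The dimmest Vcan probe set, 1427257_at, fell by less. It had 5.45, 5.45, 5.28, 5.19 and 5.45 in BF arrays, 5.69, 5.60, 5.48, 5.29 and 5.49 in FC arrays, and 6.69, 5.81, 5.76, 5.56 and 5.81 in BG arrays. BF lay just below BG, and BG replicate 1 stood well above the other BG arrays. It fell by 0.57 in BF vs. BG (adjusted p = 0.0294), a call lost without BG replicate 1 (-0.38, adjusted p = 0.0809), without BF replicate 3 (-0.55, adjusted p = 0.0641) and without BF replicate 4 (-0.52, adjusted p = 0.0752).

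Among the small leucine-rich proteoglycans, none passed the test in *longissimus dorsi*. Lum, whose product lumican binds collagen fibrils, came nearest, with 10.71, 9.56, 10.60, 10.76 and 10.91 in BF arrays, 10.83, 10.60, 10.69, 11.06 and 10.41 in FC arrays, and 10.94, 10.96, 10.98, 11.25 and 11.23 in BG arrays. Every BF array lay below every BG array, as did 4 of the 21 probe sets in all (those of Vcan and Lum) and 2.71% of all probe sets. The change was -0.56 in BF vs. BG (95% interval -0.96 to -0.17, adjusted p = 0.0638). Without BF replicate 2 it was -0.33 (adjusted p = 0.155), and Lum passed without BF replicate 5 (-0.66, adjusted p = 0.0458), with quantile normalization within muscle (0.0415), with the replicate block (0.0363) and among the brighter probe sets (0.0451). Dcn, the gene of decorin and one of the brightest on the array (99.7% of probe sets were dimmer on average), had 13.40, 12.71, 13.39, 12.97 and 13.10 in BF arrays, 13.47, 12.98, 13.27, 12.97 and 12.81 in FC arrays, and 13.43, 13.10, 12.85, 13.06 and 13.47 in BG arrays. The groups of Dcn overlapped throughout, with a change of -0.07 in BF vs. BG (95% interval -0.36 to 0.22). The brightest Bgn probe set had 9.34, 8.37, 9.36, 8.87 and 9.21 in BF arrays, 10.48, 9.12, 9.79, 8.52 and 8.55 in FC arrays, and 9.35, 8.72, 8.75, 8.24 and 10.06 in BG arrays. Bgn overlapped as well, with a change of 0.01 (95% interval -0.68 to 0.69), and its other probe sets gave -0.13 and -0.04. The interval of Bgn was the wider, so that larger differences could have gone undetected in it than in Dcn.

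Fmod varied most within the groups. Its brightest probe set, 1415939_at, had 9.63, 8.69, 10.47, 7.80 and 8.37 in BF arrays, 12.36, 10.99, 12.15, 8.39 and 8.60 in FC arrays, and 10.46, 9.14, 8.27, 8.37 and 11.06 in BG arrays. In FC 3 arrays were at 10.99 or above and 2 at 8.60 or below, and all housings overlapped. The mean was 8.99 ± 1.06 in BF, 10.50 ± 1.90 in FC and 9.46 ± 1.25 in BG (SD, n = 5 each). The change was -0.47 in BF vs. BG (95% interval -1.90 to 0.97, adjusted p = 0.728) and -1.50 in BF vs. FC (95% interval -2.94 to -0.07, adjusted p = 0.286). The 6 probe sets gave -0.47 to -0.34 in BF vs. BG and -1.56 to -1.31 in BF vs. FC, close to one another.

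Of the glycoproteins, Postn fell in BF vs. BG. Postn, whose product periostin joins collagen and other matrix proteins, had 8.12, 7.07, 7.56, 7.29 and 7.74 in BF arrays, 8.28, 7.12, 8.18, 7.60 and 7.25 in FC arrays, and 9.29, 7.95, 8.48, 7.82 and 8.16 in BG arrays. BF and BG overlapped through BF replicate 1, and FC lay between 7.12 and 8.28. It fell by 0.78 in BF vs. BG (standard error 0.248, adjusted p = 0.0469) and differed by -0.13 in BF vs. FC and -0.65 in FC vs. BG (adjusted p = 0.10). With the replicate block FC vs. BG passed (adjusted p = 0.00677). Over 32 alternative fits the adjusted p of BF vs. BG ranged from 0.00187 to 0.154. The call stood close to the threshold: it was lost without BF replicates 2, 3, 4 or 5, BG replicates 1 or 3 or FC replicate 4 of this muscle, and without any tongue array except BF replicate 2, with adjusted p = 0.154 without BG replicate 1 (change -0.54) as the highest of these.

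Fn1, Tnc and Sparc did not pass in *longissimus dorsi*. The brighter Fn1 probe set, 1426642_at, had 10.19, 8.11, 9.14, 9.02 and 9.58 in BF arrays, 10.21, 9.34, 9.86, 9.51 and 9.41 in FC arrays, and 10.15, 9.54, 9.55, 9.23 and 10.06 in BG arrays. BF replicate 2 was the lowest of all and the groups overlapped, with a change of -0.50 in BF vs. BG (95% interval -1.05 to 0.05, adjusted p = 0.251). Without BF replicate 2 this Fn1 change was -0.22. Tnc, the gene of tenascin-C, had 6.80, 6.31, 5.81, 5.38 and 5.73 in BF arrays, 8.66, 7.57, 7.64, 5.59 and 5.68 in FC arrays, and 7.58, 6.59, 6.02, 5.99 and 7.87 in BG arrays. FC replicates 1 to 3 and BG replicates 1 and 5 of Tnc were above every BF array, and the other ground arrays were not. The change of Tnc was -0.81 in BF vs. BG (95% interval -1.76 to 0.15) and -1.02 in BF vs. FC (95% interval -1.98 to -0.07, adjusted p = 0.275). The brighter Sparc probe set ranged from 10.39 to 11.93 in BF, 10.45 to 12.08 in FC and 10.52 to 11.72 in BG, and differed by -0.07 in BF vs. BG (95% interval -0.71 to 0.58).

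Timp1, whose product inhibits matrix metalloproteinases, fell by 1.07 in BF vs. BG (standard error 0.334, adjusted p = 0.0442). It had 5.68, 5.67, 5.39, 5.32 and 5.55 in BF arrays, 5.97, 5.24, 5.99, 5.36 and 5.63 in FC arrays, and 6.73, 6.15, 5.61, 5.94 and 8.50 in BG arrays. The size of the change rested on BG replicate 5: without it the change was -0.59 (adjusted p = 0.0299), no longer more than 2-fold. The call was lost, with adjusted p-values up to 0.097, without BG replicate 1, FC replicate 5 or any 1 BF array of *longissimus dorsi*, and without BF replicate 1 or 3, BG replicate 1 or 3 or either FC array of tongue. The change was -0.95 in FC vs. BG (adjusted p = 0.0774) and -0.12 in BF vs. FC (95% interval -0.81 to 0.57).

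Markers of other cells are given beside these values. The mean of 12 macrophage genes, such as Cd68 and C1qa, ranged from 6.90 to 8.40 in BF, 7.17 to 8.17 in FC and 7.60 to 9.73 in BG arrays of *longissimus dorsi*, with the highest in BG replicate 5, and 0 of the 12 passed in BF vs. BG. The mean of 6 mast cell genes was 5.24 to 5.92 in BF, 5.38 to 5.84 in FC and 5.66 to 7.95 in BG, again highest in BG replicate 5, and 1 of the 6 fell in BF vs. BG. The mean of 9 fibroblast genes was 7.38 to 8.09 in BF, 7.59 to 8.31 in FC and 7.59 to 8.49 in BG, and 2 of the 9 fell in BF vs. BG. Of all probe sets 3.83% fell in BF vs. BG and 2.16% in FC vs. BG. In FC vs. BG 1 of the 12 macrophage, 3 of the 6 mast cell and 0 of the 9 fibroblast genes fell. The macrophage and mast cell medians were -0.66 and -0.79 in BF vs. BG and -0.66 and -0.85 in FC vs. BG. In BF vs. FC they were 0.02 and 0.05. The fibroblast median was -0.21 in BF vs. BG, -0.16 in BF vs. FC and -0.07 in FC vs. BG, against -0.04, -0.04 and -0.004 over all genes. In BF vs. FC 1 of the 9 fibroblast genes fell, as did 362 of all 22626 probe sets. RMA values have no zero, so that no marker can be called absent. The part of these cells in the changes of Vcan, Postn and Timp1 was not tested. Without BG replicate 5 the change in BF vs. BG was -0.59 for Timp1, where all arrays gave -1.07, and -0.83 for Postn (-0.78). For the Vcan probe sets it was -1.26, -1.09 and -0.60 from the brightest to the dimmest (-1.32, -1.20 and -0.57).

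Other matrix genes were counted in lists with 1 probe set per gene, to be read against the 3.83% of all probe sets that fell and the 6.41% that rose in BF vs. BG. These shares cover every probe set, including dimmer ones of the same gene and those that name no gene, so they are only a rough background. Among 18 other proteoglycans in *longissimus dorsi*, 1 rose and 1 fell. Spock2, a testican, rose by 0.82 (adjusted p = 0.00283), and Srgn, the proteoglycan of granules in blood cells, fell by 0.45 (adjusted p = 0.0335). Of 47 other matrix glycoproteins 3 fell and 0 rose, namely Thbs4 (-1.09, adjusted p = 0.0437), a thrombospondin, Fstl1 (-0.98, adjusted p = 0.0194), a relative of SPARC, and Mfap5 (-0.80, adjusted p = 0.0355), a microfibril protein. Of 15 collagen chains 4 fell and 0 rose (Col6a3, Col14a1, Col5a2 and Col6a2, by 0.78 to 0.88). The medians of the 3 lists were -0.20, -0.17 and -0.43, against -0.04 over all genes. Srgn and Mfap5 also fell in FC vs. BG, by 0.58 (adjusted p = 0.00968) and 0.88 (adjusted p = 0.0248).

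Few enzymes, receptors and signalling genes passed, and these counts too stand against the 3.83% and 6.41% of all probe sets. Of 27 matrix proteases, inhibitors and cross-linking enzymes 2 fell, Serpinh1 (-1.02, adjusted p = 0.00901), the collagen chaperone, and Loxl3 (-0.58, adjusted p = 0.00754), a lysyl oxidase. Of 17 enzymes that build glycosaminoglycan chains 1 fell, Has2 (-0.46, adjusted p = 0.0162), which makes the hyaluronan that versican binds. Of 21 matrix receptors 1 rose, the collagen receptor Ddr1 (0.77, adjusted p = 0.00843), and of 15 genes of the TGF-beta pathway 2 rose, Tgif1 (1.09, adjusted p = 0.000516) and Smad7 (0.48, adjusted p = 0.00156), both of which restrain that pathway. Ddr1 and Smad7 also rose in FC vs. BG, by 0.69 (adjusted p = 0.0184) and 0.47 (adjusted p = 0.00348). For these 2 genes FC mice, which did not fly, thus differed from BG mice in the same direction as BF mice. Tgif1 did not pass in FC vs. BG (0.20, adjusted p = 0.529). In that comparison 4 of the 15 genes of the TGF-beta pathway rose, where 1537 of all 22626 probe sets rose. The medians of these 4 lists were -0.12, 0.00, -0.04 and 0.07.

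**Figure D3:**
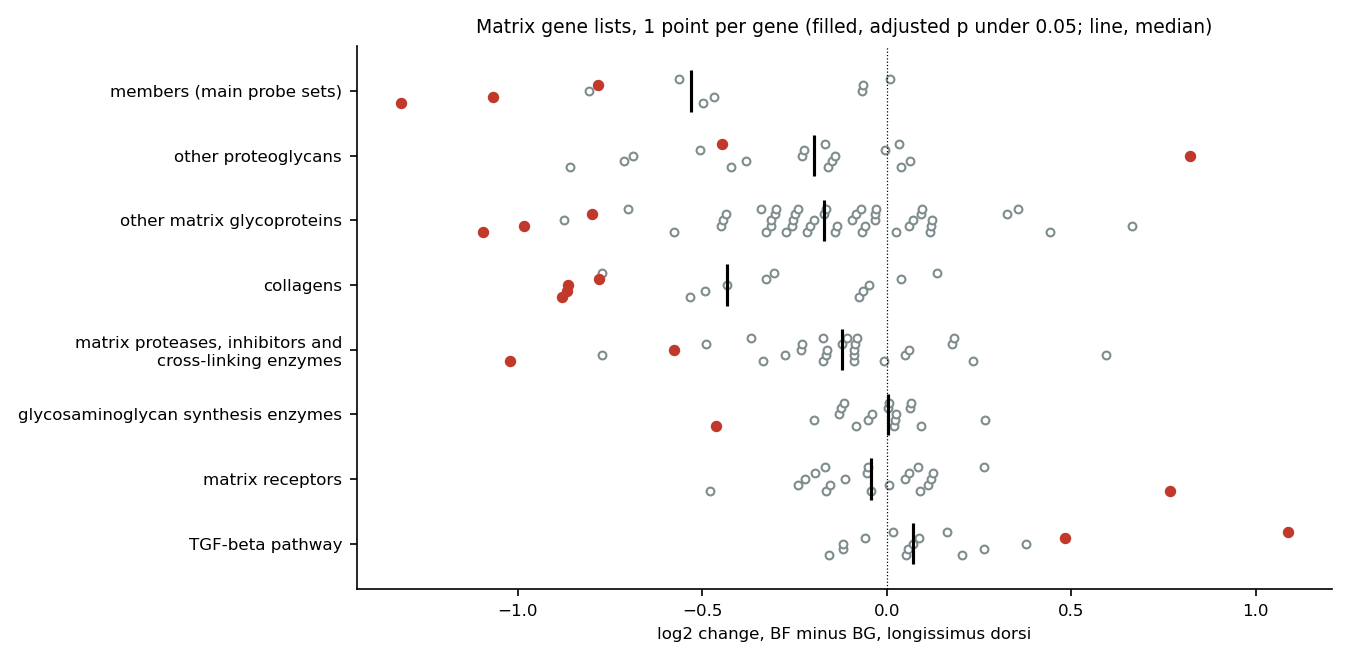
Log2 change in BF vs. BG of *longissimus dorsi* (horizontal axis) for the 10 members by their brightest probe sets and for 7 lists of matrix genes, 1 point per gene, with the median as a black line. Filled points passed the adjusted p of 0.05. Of these, 3 members, 4 collagens, 3 other glycoproteins, Srgn, Serpinh1, Loxl3 and Has2 lie below 0, while Spock2, Ddr1, Tgif1 and Smad7 lie above it.

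In tongue the groups were smaller, with 3 BF, 2 FC and 3 BG arrays. In BF vs. BG 1 of the 21 probe sets fell, that of Postn, against 0.473% of all probe sets. The estimate was below 0 in 11 of the 21 (median -0.12, against 0.02 over all probe sets). In BF vs. FC it was below 0 in 18 of the 21 (median -0.55, against -0.01). Postn had 7.76, 7.97 and 7.66 in BF arrays, 9.01 and 9.25 in FC arrays, and 9.12, 9.18 and 9.27 in BG arrays. Every BF array lay more than 1 below every ground array, and FC and BG overlapped. It fell by 1.39 in BF vs. BG (standard error 0.321, 2.63-fold, adjusted p = 0.0412) and differed by -1.34 in BF vs. FC (95% interval -2.08 to -0.59, adjusted p = 0.0507) and by -0.06 in FC vs. BG. The contrast with FC passed in 12 of 32 alternative fits, with adjusted p-values of 0.00169 to 0.291 over all of them. Among these 12 were the tongue arrays fitted alone (adjusted p = 0.00169) and the replicate block (0.0031). The call in BF vs. BG was lost without BF replicates 1 or 3, any BG array or either FC array of tongue, and without BF replicates 3, 4 or 5 of *longissimus dorsi*, with adjusted p-values up to 0.186, while the change stayed between -1.43 and -1.33 in these fits.

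Vcan did not pass in tongue. Its brightest probe set had 5.58, 5.43 and 5.45 in BF arrays, 6.36 and 6.55 in FC arrays, and 6.49, 6.48 and 6.37 in BG arrays. BF lay below FC and BG with no overlap, and the change was -0.96 in BF vs. BG (95% interval -1.52 to -0.39, adjusted p = 0.0924) and -0.97 in BF vs. FC (adjusted p = 0.0983). Fitted on the tongue arrays alone, both passed (adjusted p = 0.0075 and 0.00405). FC and BG differed by 0.01 in tongue, with a 95% interval of -0.62 to 0.65.

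Fn1 was the other member that passed in tongue, by its dim probe set. This probe set, 1437218_at, had 3.93, 4.12 and 4.11 in BF arrays, 4.76 and 4.57 in FC arrays, and 3.92, 3.46 and 3.79 in BG arrays, and 11.6% of all probe sets were dimmer on average. In BF vs. FC it fell by 0.61 (adjusted p = 0.0295), the 1 call among the 21, against 1.08% of all probe sets that fell. That call was lost without any 1 BF or FC array of tongue, with adjusted p = 0.401 without FC replicate 1, and when the tongue arrays were fitted alone (adjusted p = 0.0606). In FC vs. BG it rose by 0.94 (adjusted p = 0.000682), the 1 call among the 21, against 5.13% of all probe sets that rose. The brighter Fn1 probe set had 10.68, 10.07 and 10.35 in BF arrays, 11.33 and 11.27 in FC arrays, and 10.60, 10.48 and 10.75 in BG arrays, and its change was -0.93 in BF vs. FC (adjusted p = 0.222) and 0.69 in FC vs. BG (adjusted p = 0.296). Fitted on the tongue arrays alone, the brighter probe set passed in both (adjusted p = 0.018 and 0.0341). Both probe sets of Fn1 were thus highest in the FC arrays.

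The remaining members did not pass in tongue in the fit of all arrays. Sparc had 10.27, 9.94 and 9.56 in BF arrays, 10.94 and 10.87 in FC arrays, and 10.71, 10.59 and 10.63 in BG arrays, with BF below both ground groups and a change of -0.72 in BF vs. BG (95% interval -1.54 to 0.11). Lum had 10.95, 11.54 and 11.01 in BF arrays, 11.87 and 11.75 in FC arrays, and 11.49, 11.997 and 11.62 in BG arrays, a change of -0.54 (95% interval -1.05 to -0.02, adjusted p = 0.299). The lumican values of BF and BG overlapped through BF replicate 2. Timp1 had 5.17, 5.26 and 5.36 in BF arrays, 5.44 and 5.38 in FC arrays, and 5.58, 6.12 and 5.92 in BG arrays, a change of -0.61 in BF vs. BG (95% interval -1.50 to 0.28). Tnc, Dcn and Bgn differed by -0.58, -0.12 and 0.13 in BF vs. BG and the 6 probe sets of Fmod by 0.10 to 0.39, with 95% intervals that include 0. All 3 Bgn probe sets were higher in both FC arrays than in any BF or BG array. The brightest had 9.93 and 10.18 in FC, 9.22 to 9.24 in BG and 8.99 to 9.81 in BF. Fitted on the tongue arrays alone, it rose by 0.82 in FC vs. BG (adjusted p = 0.0328). In that fit Sparc fell by 0.98 in BF vs. FC (adjusted p = 0.0175). The fibroblast list mean was 7.56 to 7.80 in BF, 7.97 to 7.99 in FC and 7.88 to 7.94 in BG arrays of tongue, lower in every BF array than in any ground array. Macrophage and mast cell list means were also lower in BF than in BG arrays, at 7.75 to 7.93 in BF, 7.89 to 8.07 in FC and 8.0 to 8.29 in BG for the macrophage genes and 6.64 to 6.77 in BF, 6.88 to 7.02 in FC and 6.99 to 7.21 in BG for the mast cell genes. In BF vs. BG of tongue 0 of the 9 fibroblast, 0 of the 12 macrophage and 0 of the 6 mast cell genes passed in limma. Of all 22626 probe sets only 107 fell and 80 rose there, so counts of 0 say little about these short lists. The part of these cells in the member values was not tested.

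Whether the muscles differed in their change was tested directly, as the change in tongue minus that in *longissimus dorsi*. None of the 21 passed in BF vs. BG, against 0.172% of all probe sets, and none in BF vs. FC, against 0.0663%. An unadjusted p under 0.05 was found for 2 of the 21 in either test, where all probe sets gave 12.1% for the BG contrast and 8.06% for the FC one. For Postn the difference was -0.61 in BF vs. BG (95% interval -1.45 to 0.23) and for the brightest Vcan probe set 0.36 (95% interval -0.36 to 1.08), and both intervals include 0. In FC vs. BG 1 of the 21 passed, against 0.301%: the dim Fn1 probe set differed by 0.94 (adjusted p = 0.0232), with a change of 0.94 in tongue and 0.00 in *longissimus dorsi*. That call was lost without FC replicate 1 (adjusted p = 0.335), FC replicate 2 (adjusted p = 0.0693) or BG replicate 2 (adjusted p = 0.0871) of tongue.

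The 2 muscles were also compared in the mice that stayed on the ground, as the mean of FC and BG in tongue against that in *longissimus dorsi*. Of the 21 probe sets 8 fell and 3 rose, against 41.4% and 22.9% of all probe sets, so that the count is near the background and the sizes carry the description. The median over all probe sets was -0.16. All 6 probe sets of Fmod were lower in tongue, by 2.75 to 4.26 on the log2 scale. The brightest had 6.55 and 6.28 in FC and 6.0, 5.44 and 6.15 in BG tongue, all below the lowest *longissimus dorsi* array of any housing, 7.80, and its change was -3.84 (standard error 0.608, 14.3-fold, adjusted p = 1.01e-05).

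Fn1 (1.27, adjusted p = 6.15e-05), Postn (1.15, adjusted p = 9.23e-05) and Lum (0.86, adjusted p = 0.000123) were higher in tongue. Lum lay at 11.49 or above in every ground tongue array and at 11.25 or below in every ground *longissimus dorsi* array. Of Vcan, the brightest probe set differed by -0.14 (95% interval -0.52 to 0.25), while 1421694_a_at and 1427257_at fell by 0.44 and 0.39 (adjusted p = 0.0224 each). The call of 1421694_a_at was lost without either FC tongue array (adjusted p = 0.0707 and 0.0572) and that of 1427257_at without FC replicate 1 (0.0826) or BG replicate 2 (0.0815) of tongue. Dcn, Bgn, Tnc, Sparc, Timp1 and the dim Fn1 probe set did not pass. Of the tendon genes Tnmd ranged from 5.68 to 6.31 in ground tongue and from 7.13 to 10.97 in ground *longissimus dorsi*, beside the difference of Fmod. The other tendon markers did not go one way: Scx ranged from 4.12 to 4.74 in ground tongue and from 5.07 to 5.91 in ground *longissimus dorsi*, while Egr1, which is also an immediate early gene of many cells, ranged from 9.0 to 9.96 in ground tongue and from 6.87 to 8.52 in ground *longissimus dorsi*. It is not stated if a mouse gave both of its muscles, so no pairing entered this comparison.

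**Figure D4:**
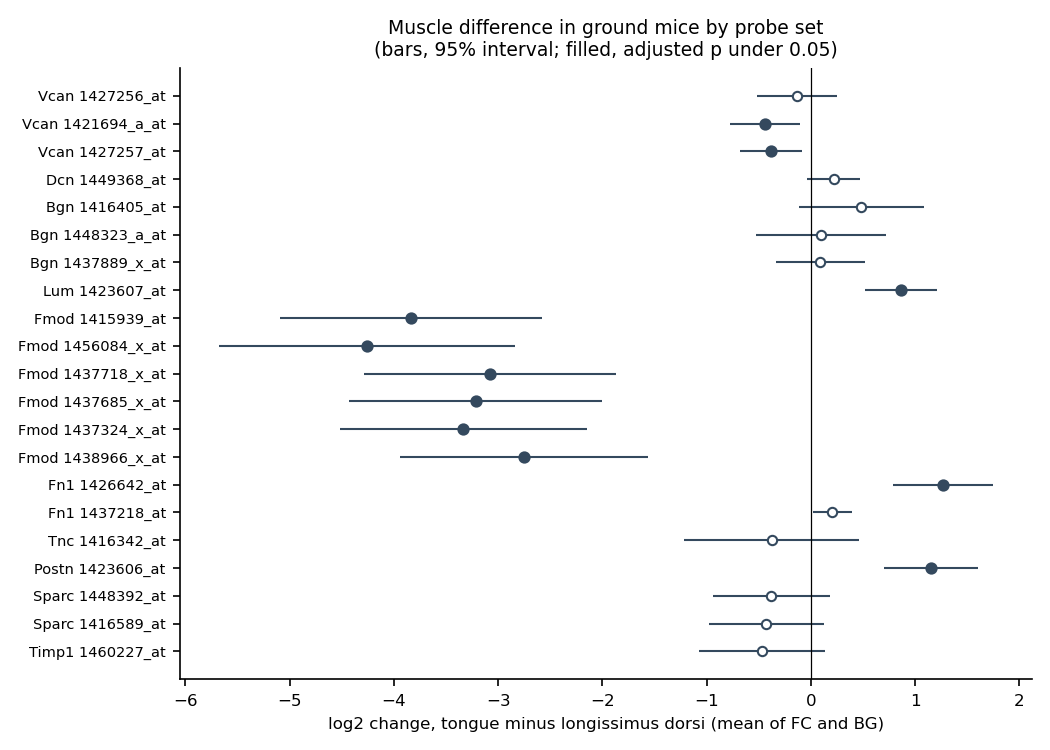
Log2 change of each of the 21 probe sets (horizontal axis) in tongue minus *longissimus dorsi* of ground mice (mean of FC and BG), with 95% intervals; filled points passed the adjusted p of 0.05. The 6 Fmod probe sets lie between -4.26 and -2.75, and of the filled points only Fn1, Postn and Lum lie above 0.

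The spread of Fmod within the housings of *longissimus dorsi* was followed by other genes. Tnmd, which encodes tenomodulin and marks tendon cells, had 9.09, 7.28, 9.42, 6.64 and 7.30 in BF arrays, 10.72, 9.31, 10.97, 7.47 and 7.13 in FC arrays, and 10.35, 8.36, 7.40, 7.79 and 8.80 in BG arrays. The arrays with high Fmod were those with high Tnmd. Over the 15 arrays, Pearson's r was 0.934 (permutation p = 1e-05, the smallest that the permutations can give; adjusted p = 0.00012 over the 12 correlations computed) and Spearman's rho 0.849 (adjusted permutation p = 0.00168). It was 0.880 without the 2 arrays farthest from the median of Fmod and 0.931 on deviations from the group means. The other tendon cell markers measured were Scx, with r = 0.548 (adjusted permutation p = 0.0684) and 0.07 without the same 2 arrays, and Egr1, with r = -0.308. Tnmd itself did not pass in BF vs. BG (-0.59, adjusted p = 0.635) or BF vs. FC (-1.18, adjusted p = 0.421).

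Among the members, Tnc (r = 0.891, rho = 0.829, adjusted permutation p = 0.00024 and 0.00168), Bgn (r = 0.846, rho = 0.729, adjusted permutation p = 0.00024 and 0.0111) and Dcn (r = 0.704, rho = 0.695, adjusted permutation p = 0.0106 and 0.0164) also ran with Fmod. Without the 2 farthest arrays r was 0.835, 0.739 and 0.672 for these genes, and on deviations from the group means it was 0.898, 0.866 and 0.817. For Sparc r was 0.700 (adjusted permutation p = 0.0106) but rho was 0.559 (adjusted permutation p = 0.079) and r was 0.458 without the 2 farthest arrays, so that the pooled relation rests on them, while r on deviations from the group means was 0.740. Vcan (r = 0.421), Postn (0.350), Timp1 (0.376), Fn1 (0.529) and Lum (0.047) did not pass, with adjusted permutation p-values of 0.0684 to 0.881. On deviations from the group means, for which no p was computed, r was 0.564 for Vcan, 0.509 for Postn, 0.568 for Timp1, 0.492 for Fn1 and 0.009 for Lum.

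**Figure D5:**
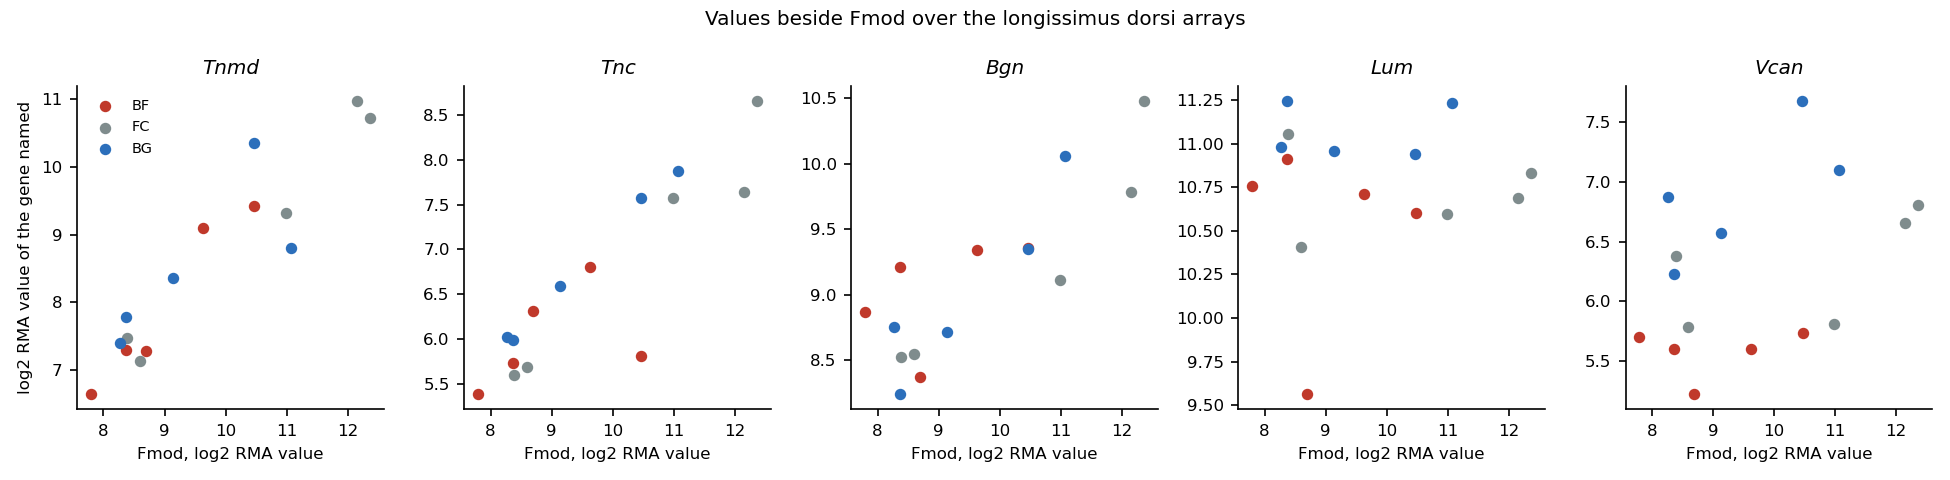
Log2 RMA values of Tnmd, Tnc, Bgn, Lum and Vcan (vertical axes, which differ between panels) against Fmod (horizontal axes) in the 15 *longissimus dorsi* arrays, coloured by housing. Tnmd, Tnc and Bgn climb with Fmod (r = 0.934, 0.891 and 0.846), Lum does not (r = 0.047), and in Vcan the BF arrays stay at or below 5.74 at every level of Fmod.

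The genes outside the set whose values ran closest to a member, by Pearson's r over the 15 *longissimus dorsi* arrays among 12393 genes, are given as a description. For Fmod they were Comp (0.984), Chad (0.971) and Wif1 (0.970), which encode a cartilage and tendon glycoprotein, a leucine-rich cartilage protein and an inhibitor of Wnt ligands. For Vcan they were Ifngr1 (0.899), Serpinb7 (0.890) and Tpm4 (0.884), for Postn Anxa2 (0.886), Bcat1 (0.880) and Clec4b1 (0.873), and for Timp1 Tmed3 (0.950), Serpinb1a (0.941) and Ccl12 (0.940). For Fn1 they included the collagen genes Col5a2 (0.902) and Col3a1 (0.900), and for Sparc Col1a1 (0.929). All of these share the same arrays, with their housing and their tissue make-up.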

How the data were processed

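RNA of 23 muscle samples was measured on Affymetrix mouse arrays, 1 array per sample. The deposited table gives 1 log2 value for each probe set and sample, which the authors made from scanned intensities by RMA (background correction, quantile normalization, median polish) in Partek Genomics Suite 6.6. RMA pulls arrays to 1 distribution and compresses differences at both ends of the scale. The scanned intensities were not used, so background and RNA quality were not measured, and the table holds 0 control probe sets. The number of arrays limits the precision.

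Groups came from the labels. The labels do not say that replicates are separate mice, while the paper gives its group sizes as numbers of muscles. The p-values set the differences between groups against the spread between these samples. All 23 arrays were fitted in limma 3.58.1 (R 4.3.3) with 6 groups, no covariate, 17 residual degrees of freedom, no filter and eBayes (prior degrees of freedom 5.12), with the Benjamini-Hochberg adjustment across 22626 probe sets for each of 10 comparisons. The methods name ANOVA with a false discovery rate, and its call adds a change of more than 2-fold. Intervals are at 95%. Probe sets were named from the platform annotation (20380 with 1 gene, 691 with several, 1555 with none). A gene's main probe set is the brightest over all arrays. All member probe sets are named, up to 4 genes per matrix list with the smallest adjusted p in BF vs. BG of longissimus dorsi, and the 3 genes most like a member. Correlations used 100000 permutations. The fit was tested on simulated data. The members, lists and motifs were chosen with earlier results of these data known. Alternatives were each muscle fitted alone, no moderation, trend and robust moderation, brighter probe sets, quantile normalization within muscle, median centring, array weights, a replicate block, 1 probe set per gene and leaving out each array.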

Additional observations from a re-analysis of the deposited data

Results flagged for a closer look

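Single arrays stood apart from their group in 4 of 63 groups of 5 arrays tested (21 probe sets in 3 housings of *longissimus dorsi*), where chance flags about 1 in 20. BF replicate 2 was low in the brightest Vcan probe set (5.22, with the next BF array at 5.60 and the highest at 5.74) and in Lum (9.56, with the next at 10.60 and the highest at 10.91). FC replicate 5 was low in Vcan 1421694_a_at (5.51, with the next at 5.93 and the highest at 6.05). BG replicate 1 was high in Vcan 1427257_at (6.69, with the next at 5.81 and the lowest at 5.56). The gap to the nearest array was above 0.71 of the group's range in each case.

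The dim Fn1 probe set 1437218_at changed differently in the 2 muscles in FC vs. BG, by the test of the difference itself: 0.94 in tongue and 0.00 in *longissimus dorsi*, a difference of 0.94 (95% interval 0.56 to 1.32, adjusted p = 0.0232 in limma). It was higher in 2 of 2 FC tongue arrays than in every BG tongue array. The brighter Fn1 probe set differed by 0.73 (95% interval -0.24 to 1.69, adjusted p = 0.622).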

How the results depend on the processing

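In BF vs. BG of *longissimus dorsi* the 5 probe sets that fell became 3 with each muscle fitted alone, 2 without moderation, 3 with trend and robust moderation, 2 of 14 among the brighter probe sets, 3 of 10 with 1 probe set per gene and 2 to 5 without single arrays, and the 3 beyond 2-fold became 0 among the brighter ones (which leave out Vcan and Timp1) and 2 to 3 without single arrays. In BF vs. FC the count of 0 became 1 with array weights or the replicate block and 0 to 1 without single arrays. In FC vs. BG the 1 that fell became 0 among the brighter ones or with 1 per gene, 4 with the block and 1 to 2 without single arrays. In tongue BF vs. BG the 1 that fell became 2 in tongue alone, 0 without moderation or with trend and robust moderation, 2 with weights or the block and 0 to 1 without single arrays. In tongue BF vs. FC the 1 became 5 in tongue alone, where the dim Fn1 probe set no longer passed, 3 with weights, 2 with the block, 0 with 1 per gene and 0 to 2 without single arrays. In tongue FC vs. BG the 1 that rose became 5 in tongue alone and 0 among the brighter ones or with 1 per gene, where the dim Fn1 probe set is not tested; its difference between the muscles likewise became 0 there and 0 to 1 without single arrays. Between the muscles the 8 lower became 5 and 1 in those fits, and the 3 higher became 6 with weights and 3 to 5 without single arrays. Apart from the left-out probe sets the cause was not tested.

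Of the single changes, 62 lost and 40 gained the call and 3380 stayed on their side of the threshold. The estimate changed sign in 77 cases over 28 results, none of them called. The brighter Vcan probe sets kept it in BF vs. BG of *longissimus dorsi* wherever tested (adjusted p up to 0.00446), while Postn lost it in 17 of 32 fits and Timp1 in 16 of 31. Same replicate numbers were not taken to pair samples in the main fit, and a block for them was fitted only as an alternative. Deviations of same-numbered *longissimus dorsi* arrays correlated at -0.22 to 0.55, with a median of 0.109 against -0.044 for other pairs. They were over 0.1 in 8 of 15 pairs, and 8 of 15 arrays correlated best with their own number. In tongue the range was -0.098 to 0.38, with a median of 0.095 against -0.055 for other pairs. There 3 of 7 pairs were over 0.1, and 4 of 8 arrays correlated best with their own number. In both muscles most arrays of the other housings carried another number than the array they were set against. Quantile normalization within each muscle changed the rises among all calls from 1537 of 2025 to 1109 of 1702 in FC vs. BG of *longissimus dorsi* and from 80 of 187 to 172 of 302 in BF vs. BG of tongue. The correlations without 2 arrays and on deviations were added after the data were seen.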
